A study of Homo sapiens with 8 samples.

Results

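The mucins MUC1, MUC4, MUC13, MUC15, MUC16 and MUC20 and the trefoil factors TFF1, TFF2 and TFF3 were followed in HuCCT1 cells, an established line of human intrahepatic cholangiocarcinoma, a cancer of the bile ducts inside the liver. These 9 genes were chosen by name, with earlier results of these data known, out of 34809 gene names on the array. Their names were carried by 16 probes. The cells bore retroviral vectors for short hairpin RNAs. Control cells had the vector shControl or shNontarget, and cells with BEX2 (brain expressed X-linked 2) knocked down had the vector shBEX2-1 or shBEX2-2, with 2 arrays for each of these 4 vectors. The study's text describes a control hairpin against luciferase and does not say which control vector that is, so both were used as control. The target sequences it gives for its BEX2 hairpins are nearly the same stretch of the gene, written on opposite strands, so that the knockdown cells were not made with hairpins to separate sites. No source says that a vector's 2 arrays hold RNA of separate cultures, and p-values therefore measure only the spread between these arrays, which may be technical. The comparison asks which genes of these families differ in RNA level when BEX2 is knocked down.

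Membrane mucins are large glycoproteins whose outer part stands out from the cell surface as a dense coat of O-linked sugar chains. Trefoil factors are small secreted peptides held in shape by disulfide bonds, released together with mucins by the lining of the gut, stomach and bile ducts, and known for their part in mucosal repair. Several of these genes, MUC1, MUC4 and MUC16 above all, are known as markers of tumours of ductal epithelium, and MUC16 carries the CA125 antigen. In the human genome MUC20 and MUC4 are neighbours on chromosome 3, and TFF3, TFF2 and TFF1 lie next to each other on chromosome 21, with 0 genes listed between neighbours in either group in RefSeq's gene table for GRCh38.p14.

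A probe reads 1 part of a transcript, and the MUC4 probes gave different values, so the sequences of its 4 probes are given. MUC4 is known for a long stretch of tandem repeats in its coding sequence, and whether a probe lies in it was not analysed here. Capitals mark the run of 12 bases that 3 of the probes have in common. The fourth probe, A_24_P208825, has no copy of that run and shares at most 6 bases in a row with any of the other 3.
MUC4 A_24_P239176: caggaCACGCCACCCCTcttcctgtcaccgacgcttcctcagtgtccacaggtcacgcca
MUC4 A_24_P239177: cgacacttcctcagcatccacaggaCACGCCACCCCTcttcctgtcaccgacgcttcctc
MUC4 A_33_P3417281: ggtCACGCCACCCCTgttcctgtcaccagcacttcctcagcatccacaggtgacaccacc
MUC4 A_24_P208825: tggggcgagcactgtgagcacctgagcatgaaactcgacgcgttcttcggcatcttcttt
The array's own annotation, on build hg19, puts these probes on the minus strand at chr3:195514760-195514819, chr3:195514780-195514839, chr3:195506310-195506369 and chr3:195474164-195474223, in the order printed. A_24_P239176 and A_24_P239177 overlap and share a run of 40 bases, so that they are not separate measurements of the gene. The array files pair A_24_P208825 with 3 RefSeq transcripts of MUC4 and each of the other probes with 1.

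TFF1 and TFF2 come from related genes, and their probes are shown because a probe that fitted both would not tell them apart. They share no run longer than 7 bases.
TFF1 A_24_P322771: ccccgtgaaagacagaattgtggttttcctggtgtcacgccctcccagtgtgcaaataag
TFF2 A_23_P57364: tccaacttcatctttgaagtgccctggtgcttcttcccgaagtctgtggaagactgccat
The TFF1 probe lies at chr21:43783440-43783499 on the minus strand of hg19, and the files give no position for the TFF2 probe. Neither exons nor introns of that build were given with the files, and the place of a probe within its gene was not analysed here.

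Each array gave 58717 spots outside the controls, of which between 59.8% and 64.6% were well above background and 0 were saturated. Intensities were taken as log2 relative to the 75th percentile of the array, which ran from 667 to 838 on control arrays and from 441 to 631 on knockdown arrays, so a level of 0 is the intensity below which 75% of spots lie. BEX2 itself was at 71.0, 55.7, 115 and 48.8 intensity units on the 4 control arrays, at 11.9 and 11.1 with shBEX2-1, where neither array was well above background, and at 20.4 and 26.0 with shBEX2-2. The shNontarget arrays stood apart: 34.9% of the genes tested differed by more than 1 log2 unit between these 2 arrays, against 1.76% for shControl, 1.57% for shBEX2-1 and 0.557% for shBEX2-2. All 8 arrays were on 1 slide, with control arrays in one row and knockdown arrays in the other, so that position and group cannot be told apart. The biliary keratins KRT7 and KRT19 were well above background on every array, with levels of at least 8.14 and 7.67, and the biliary marker SPP1 was above background on 0 arrays. Of 5 hepatocyte markers ALB and TTR were above background on 0 arrays, CYP3A4 on 1, APOA1 on 6 and CPS1 on 8.

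Of the 9 genes, 6 were well above background on all 8 arrays, namely MUC1, MUC4, MUC16, MUC20, TFF1 and TFF2. MUC13 and MUC15 were above background on 0 arrays, with intensities from 2.86 to 4.26 and from 3.55 to 5.83. The brightest TFF3 probe was also above background on 0 arrays, at 5.77 to 12.7. Another TFF3 probe, A_33_P3334305, reached 70.3 and was above background on shControl replicate 2 alone, and was between 3.01 and 9.02 on the other 7 arrays. No fold change is given for these 3 genes, because both groups were at background. RNA was measured in bulk, so that fewer cells with a transcript and less of it in each cell cannot be told apart.

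MUC20 was lower in the knockdown cells of both vectors. MUC20 is a small membrane mucin known to bind the receptor tyrosine kinase MET. Its relative log2 level was 0.04 and 0.10 on the shControl arrays and -1.02 and -0.35 on the shNontarget arrays. It was -1.48 and -1.29 with shBEX2-1, and -1.99 and -2.01 with shBEX2-2. Every knockdown array was below every control array, and shNontarget lay between shControl and the knockdown cells. Across 4 knockdown and 4 control arrays the mean fell from -0.31 ± 0.51 (SD, n = 4) to -1.69 ± 0.36 (SD, n = 4), a log2 fold change of -1.38 (SE 0.28, 95% interval -2.01 to -0.76), which is 2.61-fold lower, with an adjusted p of 0.0125 (limma). In this comparison 12.9% of all genes tested were called, meaning an adjusted p under 0.05 over all 20450 genes, and 6.26% were called lower. Of the 6 genes tested here, MUC20 was the 1 called. This fit took the 4 arrays of a condition as separate, though each vector gave 2 of them. With the vector as a random block MUC20 stayed called. With shControl alone as control the log2 fold change was -1.76 and the adjusted p was 0.00114. With shNontarget alone it was -1.01 and the adjusted p was 0.143, so that the call was lost. Over all genes these settings called 6842 and 341. Leaving out any 1 array left the adjusted p of MUC20 between 0.0014 and 0.0478.

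**Figure D1:**
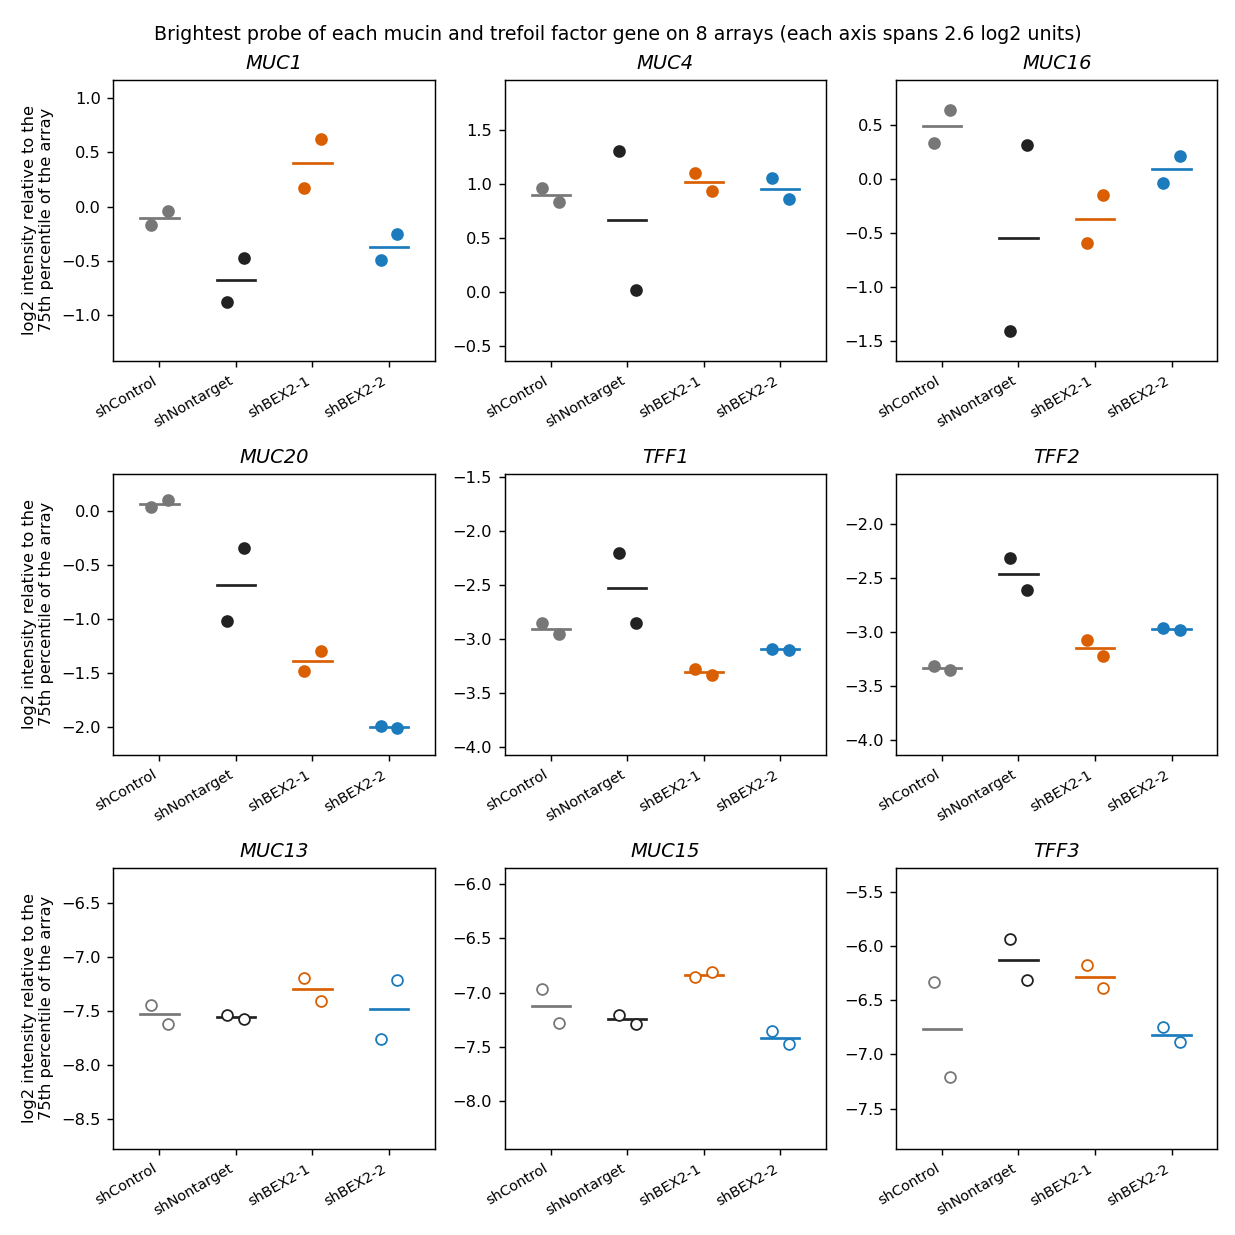
Relative log2 intensity of the brightest probe of each of the 9 genes, by vector, with 1 point for each array and a line at the mean of the 2 arrays; open points were not well above background, and every panel spans the same height. MUC20 and TFF1 are lower on all 4 knockdown arrays than on any control array, while MUC13, MUC15 and TFF3 have open points throughout.

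Taken by vector, in a model with all 4 vectors, MUC20 had a log2 fold change of -1.08 (SE 0.21, 95% interval -1.58 to -0.58) in shBEX2-1 cells, with an adjusted p of 0.0339, where 7.03% of all genes were called, 3.4% higher and 3.63% lower. In shBEX2-2 cells it was -1.69 (SE 0.21, 95% interval -2.19 to -1.19), with an adjusted p of 0.0071, where 9.67% were called, 4.86% higher and 4.81% lower. Both values were taken against the same 4 control arrays. The difference between the sublines, -0.61 with a 95% interval of -1.19 to -0.04, did not pass the test (adjusted p = 0.639). Among the control vectors the difference of shNontarget from shControl was -0.75 and did not pass (95% interval -1.32 to -0.18, adjusted p = 0.522). The shBEX2-1 call was lost without any 1 of the 6 arrays of shControl, shBEX2-1 and shBEX2-2, with adjusted p up to 0.323, with shNontarget alone as control, at -0.70 and an adjusted p of 0.181, and with no filter on dim probes, at an adjusted p of 0.0503. The shBEX2-2 call was lost without either of its own arrays, with an adjusted p of up to 0.111. BEX2 itself, in the same model, had a log2 fold change of -1.94 (adjusted p = 0.0335) in shBEX2-1 cells. In shBEX2-2 cells BEX2 was at -1.32 and not called (adjusted p = 0.0812). The larger fall of MUC20 was thus in the subline with the smaller fall of BEX2. For BEX2, too, the difference between the sublines did not pass (adjusted p = 0.971).

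The MUC20 probe has a stop codon in every reading frame, lies at chr3:195464463-195464522 on the plus strand of hg19, and is the only probe of the gene. The array files pair it with 2 RefSeq transcripts, of which 1 is still listed for MUC20 in the RefSeq table, and that table also holds a pseudogene, MUC20P1, on chromosome 3. Whether transcripts of near copies add to this probe was not tested. Among genes outside the lists, those whose pattern over the 8 arrays was most like that of MUC20, each gene centred on its own mean, were KLHL24, SMAD6 and FHIT. The root mean square difference from MUC20 was 0.11, 0.16 and 0.18 log2 units over the 8 arrays. KLHL24, a ubiquitin ligase adaptor, ran from 0.36 to 1.26 on control arrays and from -0.92 to -0.07 on knockdown arrays. SMAD6, an inhibitor of BMP signalling, ran from -0.83 to 0.05 and from -1.76 to -1.31. FHIT, a tumour suppressor at a fragile site, ran from -4.99 to -4.40 and from -6.28 to -5.56. On the knockdown arrays FHIT was thus dimmer than BEX2 with shBEX2-1, at -5.21 and -5.54, where BEX2 was not well above background. KLHL24, SMAD6 and FHIT were picked by likeness to MUC20 on these same arrays, so their fall is not a separate result.

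MUC1 was not called between knockdown and control, nor in any of the comparisons by vector. MUC1 signals through a short cytoplasmic tail and is the mucin read by the CA15-3 tumour marker test. Its relative log2 level was -0.17 and -0.04 with shControl, -0.88 and -0.48 with shNontarget, 0.18 and 0.63 with shBEX2-1, and -0.49 and -0.25 with shBEX2-2. Only the shBEX2-1 arrays were above every control array, and the shBEX2-2 arrays lay within the control range. Knockdown against control gave 0.41 (SE 0.27, 95% interval -0.20 to 1.02, adjusted p = 0.373). shBEX2-1 against control gave 0.79 (SE 0.19, 95% interval 0.32 to 1.26), which missed the threshold with an adjusted p of 0.0656, and shBEX2-2 against control gave 0.02 (95% interval -0.45 to 0.49, adjusted p = 0.965). The difference of shBEX2-2 from shBEX2-1 was -0.77 (95% interval -1.31 to -0.23) and did not pass (adjusted p = 0.409), in a comparison where 2 genes, or 0.00978%, were called.

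The shBEX2-1 value of MUC1 crossed the threshold under some other settings, while in 13 of 19 alternatives it did not. The adjusted p was 0.0403 with the replicate number as a block, 0.0482 with normexp background correction and 0.0317 with the mean of its probes, at log2 fold changes of 0.79, 0.73 and 0.90. Leaving out 1 array gave log2 fold changes from 0.57 to 1.02, and shControl alone as control gave 0.51. The dimmer MUC1 probe, A_33_P3332215, gave 34.1, 41.1, 20.9 and 24.2 intensity units on the control arrays, 36.4 and 38.4 with shBEX2-1, and 24.1 and 23.0 with shBEX2-2. Tested by itself among 25053 probes, of which 7.05% were called, it was higher in shBEX2-1 cells by 1.01 (SE 0.22), with an adjusted p of 0.0492.

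**Figure D2:**
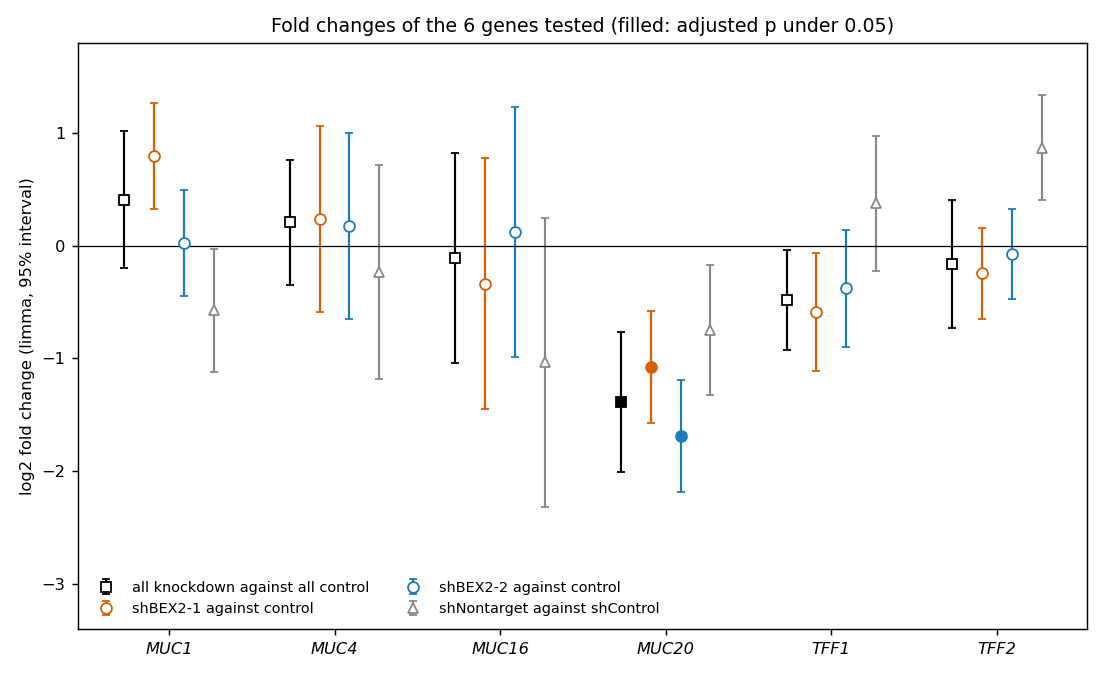
Log2 fold change of the 6 genes tested in 4 comparisons, with 95% intervals from limma; filled symbols have an adjusted p under 0.05. MUC20 holds the 3 filled symbols, at -1.38, -1.08 and -1.69. For MUC1, MUC4, MUC16 and TFF2 the control vectors differ by -0.57, -0.23, -1.04 and 0.87, more than knockdown and control do. Knockdown and control differ by 0.41, 0.21, -0.11 and -0.16 for these genes.

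MUC4 gave different pictures by probe. It is a membrane mucin that binds the receptor ERBB2. The brightest probe by its mean over the arrays, A_24_P239176, 1 of the 3 with the shared run, was at 0.97 and 0.83 with shControl, 1.31 and 0.02 with shNontarget, 1.10 and 0.93 with shBEX2-1, and 1.05 and 0.86 with shBEX2-2. The knockdown arrays lay within the range of the control arrays, and the fold change was 0.21 (SE 0.25, 95% interval -0.35 to 0.76, adjusted p = 0.639). The other probes with that run, tested by themselves among 25053 probes of which 13.6% were called, gave 0.19 and 0.05, with adjusted p of 0.628 and 0.937.

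The probe without that run, A_24_P208825, was at 1.42 and 1.73 with shControl, -2.61 and -0.98 with shNontarget, -0.86 and -0.38 with shBEX2-1, and 0.31 and 0.51 with shBEX2-2. All 3 other vectors were thus below shControl, and the shNontarget arrays were the lowest. Its intensity was 1950 and 2775 on the shControl arrays and 123 and 339 on the shNontarget arrays. Between those control vectors the log2 difference was -3.37 (SE 0.51, 95% interval -4.59 to -2.14), which did not pass the test over all probes (adjusted p = 0.379), where 0 of 25053 probes were called. The probes with the shared run gave -0.23, -0.48 and -0.96 in the same comparison. Knockdown against control was 0.01 at this probe, with a 95% interval of -1.96 to 1.98, since one control vector was above the knockdown arrays and the other below them.

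**Figure D3:**
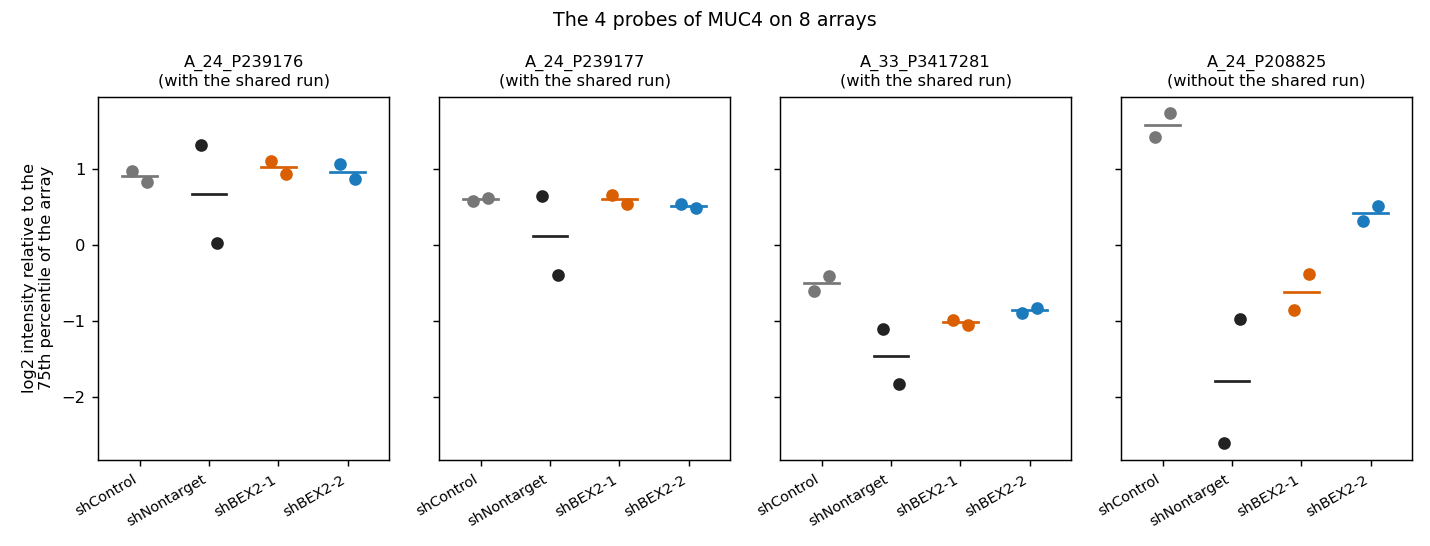
Relative log2 intensity of the 4 MUC4 probes, by vector, with 1 point for each array and a line at the mean of the 2 arrays; the 3 probes on the left share the run of 12 bases. The probe on the right, without that run, runs from -2.61 to 1.73 among the control arrays, and the one on the left from 0.02 to 1.31.

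MUC16, the largest of the membrane mucins, is known to bind mesothelin. Its relative log2 level was 0.33 and 0.64 with shControl, -1.41 and 0.31 with shNontarget, -0.59 and -0.15 with shBEX2-1, and -0.04 and 0.21 with shBEX2-2. The groups overlapped, and shNontarget replicate 1 was the lowest array. The log2 fold change of -0.11 (SE 0.41, 95% interval -1.04 to 0.82, adjusted p = 0.898) did not pass. Its other probe, A_33_P3313110, gave 0.46 (SE 0.33, adjusted p = 0.412), so that the probes differed in sign and neither was called. Per vector, the brightest probe gave -0.34 in shBEX2-1 and 0.12 in shBEX2-2 cells, with adjusted p of 0.733 and 0.918.

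TFF1, a gastric trefoil peptide well known as an oestrogen-induced gene, was at -2.86 and -2.95 with shControl, -2.21 and -2.85 with shNontarget, -3.28 and -3.33 with shBEX2-1, and -3.09 and -3.10 with shBEX2-2. Every knockdown array was below every control array. Together with MUC20 it made 2 of the 6 genes whose groups did not overlap, a pattern that 22.1% of all genes tested had. The fold change of -0.48 (SE 0.20, 95% interval -0.93 to -0.04) did not pass over all genes, with an adjusted p of 0.148. Without shNontarget replicate 1 it was -0.31. It was -0.13 with normexp background correction. By vector it was -0.59 (95% interval -1.11 to -0.07, adjusted p = 0.175) in shBEX2-1 and -0.38 (95% interval -0.90 to 0.14, adjusted p = 0.363) in shBEX2-2 cells.

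TFF2, the trefoil peptide with a pair of trefoil domains, differed more between the control vectors than with the knockdown. It was at -3.32 and -3.36 with shControl, -2.32 and -2.62 with shNontarget, -3.07 and -3.23 with shBEX2-1, and -2.96 and -2.99 with shBEX2-2. Both shNontarget arrays were above every other array and both shControl arrays below every other. The difference of shNontarget from shControl was 0.87 (SE 0.19, 95% interval 0.41 to 1.33, adjusted p = 0.388), in a comparison where 0 genes, or 0%, were called by limma and 1567 had an unadjusted p under 0.05. Knockdown against control was -0.16 (SE 0.25, 95% interval -0.73 to 0.41, adjusted p = 0.734). With shControl alone as control its sign turned, to 0.27, with an adjusted p of 0.165.

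In the model by vector, 1 gene of 6 was called in shBEX2-1 cells and 1 in shBEX2-2 cells, MUC20 in both, and 0 in the other comparisons. These counts moved with single arrays. The shBEX2-1 count was 0 without any 1 array of shControl, shBEX2-1 or shBEX2-2, and the shBEX2-2 count was 0 without either shBEX2-2 array and 1 without any array of shControl or shBEX2-1. Without shNontarget replicate 1, 5 of the 6 genes were called in shBEX2-1 and 2 in shBEX2-2 cells, and without replicate 2 the counts were 3 and 3, with the array that remained assumed to vary like the others. Over all genes the counts went from 1438 to 10816 and 10752 in shBEX2-1 cells, and from 1977 to 10533 and 11147 in shBEX2-2 cells. MUC4 was among the 5, at 0.56, and without replicate 2 its value was -0.08 and not called. MUC20 was called in both sublines in each of these fits, with log2 fold changes from -1.86 to -0.91.

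Genes that work with mucins were read from lists chosen by function. Of 9 other secreted mucins, 5 were tested, and OVGP1, an oviduct glycoprotein of mucin type, fell by 0.82 on the log2 scale (SE 0.21, adjusted p = 0.0310), with 0 higher, where 6.26% of all genes were called lower. Its 4 control arrays ran from -1.80 to -0.85 and its knockdown arrays from -2.34 to -2.13. The gel-forming mucins MUC5AC, at -0.63 (adjusted p = 0.235), and MUC5B, at -0.96 (adjusted p = 0.290), were not called, nor were MUC2, at -0.02 (adjusted p = 0.954), and MUC6, at 0.21 (adjusted p = 0.423), of the same class. With shNontarget alone as control 0 of these mucins were called, where 341 of 20450 genes were, and with shControl alone 2 were, both lower, where 6842 were. The median of these 5 was -0.63, the value of MUC5AC, which was not called, against 0.03 for all genes tested. MUC5B was well above background on only 4 of the 8 arrays, with levels from -7.10 to -4.36. Of 9 other membrane and small mucins, 2 were tested, CD164 and MCAM, and 0 were called.

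The enzymes that build mucin O-glycans were called in both directions. Of 38 such enzymes 27 were tested, with 3 higher and 2 lower, where 6.68% of all genes were called higher and 6.26% lower, and a median of 0.11. ST6GALNAC2, a sialyltransferase that adds sialic acid to the first sugar of the chain, was at -1.53 ± 0.29 (SD, n = 4) on control and at -3.13 ± 0.19 (SD, n = 4) on knockdown arrays. It fell by 1.60 (SE 0.18, adjusted p = 0.0015), a 3.03-fold difference. CHST4, a sulfotransferase acting on N-acetylglucosamine, ran from -3.45 to -2.81 on control arrays and from -2.09 to -1.90 on knockdown arrays, and rose by 1.14 (SE 0.17, adjusted p = 0.0034). GALNT14 and GALNTL4, of the family that starts the chain, rose by 0.70 (adjusted p = 0.0134) and 0.78 (adjusted p = 0.0315), and GALNT5 of the same family fell by 0.54 (adjusted p = 0.0200). Each of these 5 had groups that did not overlap, as 22.1% of all genes tested did. The same held for GALNT3, GALNT11 and GCNT1, which were not called. With shControl alone as control 3 enzymes were higher and 5 lower, where 6842 of 20450 genes were called, and with shNontarget alone 1 was higher, CHST4, and 1 lower, ST6GALNAC2, where 341 were.

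Of 30 regulators and products of secretory epithelium 21 were tested, with 1 higher, 1 lower and a median of -0.01, where 12.9% of all genes were called. FCGBP, a mucus protein that binds the Fc part of IgG, ran from -0.80 to 0.57 on control and from -1.79 to -1.07 on knockdown arrays, and fell by 1.48 (SE 0.30, adjusted p = 0.0140). SPINK4, a goblet cell peptide of the Kazal inhibitor family, rose by 2.21 (SE 0.57, adjusted p = 0.0352), although shNontarget replicate 1, at 0.11, lay among the knockdown arrays, which ran from -0.11 to 0.67, and the other control arrays ran from -2.68 to -2.32. With shNontarget alone as control neither passed, at adjusted p of 0.158 and 0.278. SPDEF, a transcription factor of goblet cells, was at -0.73 (adjusted p = 0.0914) in all knockdown cells. It fell by 1.01 in shBEX2-1 cells (adjusted p = 0.0356), where 3 of the 21 and 7.03% of all genes were called. In shBEX2-2 cells SPDEF was at -0.44 and not called (adjusted p = 0.245). For all knockdown cells it was not called with shControl alone (adjusted p = 0.169) or shNontarget alone (adjusted p = 0.118) as control. Other genes of this list near the threshold, also not called, went both ways. GKN2, well above background on 4 arrays, was at 1.53 (adjusted p = 0.0589) and CTSE at 0.82 (adjusted p = 0.0909). PIGR was at -1.19 (adjusted p = 0.0762) and KLF4 at -0.96 (adjusted p = 0.0846).

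**Figure D4:**
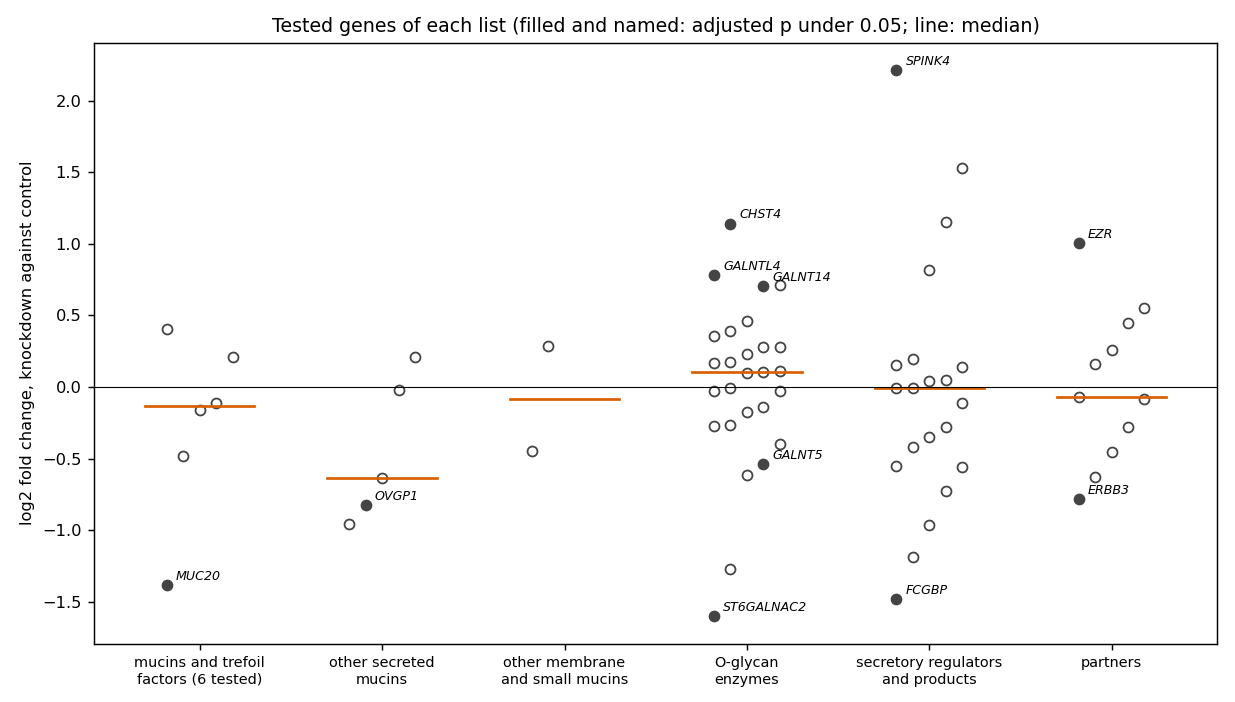
Log2 fold change of knockdown against control for each tested gene of 6 lists; filled, named points have an adjusted p under 0.05 and the line is the median of the list. The O-glycan enzymes have 3 filled points above 0 and 2 below, and MUC20 is the only filled point among the mucins and trefoil factors.

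Of 14 known partners of these proteins 11 were tested, with 1 higher, 1 lower and a median of -0.07, where 12.9% of all genes were called. EZR (ezrin), which links membrane proteins to actin, ran from 2.84 to 3.76 on control and from 4.28 to 4.34 on knockdown arrays and rose by 1.01 (SE 0.18, adjusted p = 0.0090). The receptor ERBB3 ran from -0.16 to 0.68 and from -0.51 to -0.21, and fell by 0.78 (SE 0.19, adjusted p = 0.0295). MSLN (mesothelin) was at -0.63 and just missed the threshold (adjusted p = 0.0506), and LGALS3 (galectin-3), a lectin known to bind MUC1, was at -0.45 (adjusted p = 0.104). The receptors ERBB2 and EGFR were at -0.28 (adjusted p = 0.386) and -0.07 (adjusted p = 0.787). MET was at 0.16 (adjusted p = 0.521). CXCR4, known as a receptor for TFF2, was at 0.55 (adjusted p = 0.274) over all knockdown cells. It was higher by 0.97 (adjusted p = 0.0304) in shBEX2-2 cells, where 9.67% of all genes were called. In shBEX2-1 cells CXCR4 was at 0.13 and not called (adjusted p = 0.766). Its levels were 2.34 and 2.44 with shControl and 1.98 and 1.36 with shNontarget. They were 2.06 and 2.25 with shBEX2-1, and 3.02 and 2.98 with shBEX2-2. With shControl alone as control 2 partners were higher and 5 lower, where 6842 of 20450 genes were called, and with shNontarget alone 0 were, where 341 were.

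Of 5 hepatocyte, 4 fibroblast and 3 endothelial markers, 2, 1 and 2 were tested and 0 were called, and COL1A2, THY1 and PECAM1 were above background on 0 arrays, PDGFRB on 1, and COL1A1, CDH5 and VWF on 8. Of 3 leukocyte markers 2 were tested, and CD68, a lysosomal protein used as a macrophage marker, was higher by 0.99 (SE 0.28, adjusted p = 0.0473). With shNontarget alone as control the call was lost (adjusted p = 0.153). The summed level of the 2 leukocyte markers tested, relative to the 75th percentile, ran from 0.303 to 0.576 on control and from 0.743 to 1.09 on knockdown arrays. PTPRC, the leukocyte common antigen, was at 0.49 (adjusted p = 0.348), and CD3E was above background on 3 arrays. The part of these values in the mucin results was not tested. Of 7 biliary markers 6 were tested and 0 were called in all knockdown cells. CFTR, the chloride channel of bile duct cells, was higher by 0.78 in shBEX2-1 (adjusted p = 0.0221) and at -0.76 in shBEX2-2 cells (adjusted p = 0.0182), though the shControl arrays, at 0.66 and 0.80, were above every shBEX2-1 array and the shNontarget arrays, at -1.39 and -1.22, below every shBEX2-2 array.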

How the data were processed

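RNA of 8 samples of HuCCT1 cells (2 for each vector) was Cy3-labelled with the Low Input Quick Amp kit and hybridized to 1-colour Agilent arrays. The authors deposited, for each array, the processed intensity from Feature Extraction 10.7.3.1, subtracted for background, detrended and not scaled between arrays, with low values replaced by a surrogate (19.9% to 25.9% of spots). The deposited table of the whole series held the same intensity within 0.497%.

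Control spots and spots marked as non-uniform were left out, and 36 probes with a value missing for that reason were dropped. Log2 intensity was taken minus the 75th percentile of each array. A probe was the mean of its spots and was kept where at least 4 of 8 arrays had it well above background, and the brightest probe by its mean stood for each gene, which left 20450 genes. The numbers of arrays, 4 in a condition and 2 in a vector, limit the precision. Tests used limma 3.58.1 in R 4.3.3 (lmFit, eBayes with trend) with Benjamini-Hochberg adjustment over all genes, in a fit of 2 conditions and in a fit of 4 vectors with 1 shared spread. The methods' rank product was not run here. Figures were drawn with matplotlib 3.10.9.

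Arrays with the same replicate number were treated as pairs in the replicate block, since names of deposited files give each number a day of its own. Replicate differences of the vectors correlated across genes with r of 0.26, 0.13, 0.11, -0.063, 0.21 and 0.23. The genes, the lists and the alternatives were chosen with earlier results of these data known. Named from each list were its called genes, at most 4 in each direction, and direct partners. Added after their values were seen were SPDEF, GKN2, CTSE, PIGR, KLF4, MUC2, MUC5AC, MUC5B, MUC6, CD164, MCAM, PTPRC and the other cell type markers. All 9 gene symbols, and 119 of the 122 list genes, are names on the array. The tests were tried on simulated data first.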

Additional observations from a re-analysis of the deposited data

Results flagged for a closer look

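Among 16 groups of 4 arrays, 7 genes in 2 conditions and 1 dim probe in 2, 2 held an array far from the other 3, and chance marks about 1 in 20. Both were shNontarget replicate 1. For MUC16 it was at -1.41, with the other control arrays between 0.31 and 0.64. For TFF1 it was at -2.21, with the other control arrays between -2.95 and -2.86.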

How the results depend on the processing

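The lower MUC20 level in all knockdown cells was called in 21 of 22 alternatives, and the exception was shNontarget alone as control (-1.01). These alternatives reuse the same arrays, and some, such as another filter on dim probes, leave the MUC20 values as they were. They are therefore not separate support. Beside 2646 genes called in knockdown against control there were 6842 with shControl alone, 341 with shNontarget alone, 5422 by the methods' t-test without adjustment and 1161 with a log2 change of at least 1. Leaving out an array gave 1247 to 4722. Of the mucins and trefoil factors 1 was called, 0 with shNontarget alone and 2 by that t-test without adjustment (MUC20 and TFF1). For shBEX2-1, 1438 genes became 2415 with normexp, 644 with shNontarget alone, 850 with a log2 change of at least 1 and 0 to 10816 without an array. The count of 1 became 2 with normexp, the mean of probes or the replicate block, 0 with no filter on dim probes or shNontarget alone, and 0 to 5 without an array. For shBEX2-2, 1977 genes became 1264 with shNontarget alone, 1131 with a log2 change of at least 1 and 0 to 11147 without an array, with 0 to 3 of these genes called. Between the control vectors the count of 0 became 0 to 9459 without an array, with 0 to 6 of these genes. Between the sublines 2 genes became 17 with quantile normalization, 6 with the mean of probes, 0 with normexp, no filter, a filter on all 8 arrays or the replicate block, and 0 to 3016 without an array, with 0 to 2 of these genes. The replicate block, which pairs arrays of the same number, gave 2457 genes in knockdown against control, with an adjusted p of 0.0168 for MUC20. Beside MUC1 in shBEX2-1 cells it changed no call of a mucin or trefoil factor.

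These signs turned, in comparisons where the gene was not called as reported above. In knockdown against control TFF2 became 0.027 with normexp and 0.27 with shControl alone, and MUC16 became 0.17 with the mean of probes, 0.41 with shNontarget alone and 0.46 at its other probe. Without an array MUC16 ran from -0.57 to 0.11, MUC4 from -0.047 to 0.38 and TFF2 from -0.31 to 0.035. In shBEX2-1 cells TFF2 became 0.063 with normexp and 0.19 with shControl alone. MUC16 became 0.025 with the mean of probes, 0.18 with shNontarget alone and 0.39 at its other probe, and -0.77 to 0.093 without an array. MUC4 became -0.016 with the mean of probes, -0.51 at A_24_P208825, -0.031 at A_33_P3417281 and -0.085 to 0.56 without an array. In shBEX2-2 cells MUC1 became -0.013 with the mean of probes, -0.26 with shControl alone, -0.049 at its other probe and -0.10 to 0.14 without an array. With shControl alone MUC16 was -0.40 and TFF2 0.36 there. Without an array MUC16 ran from -0.31 to 0.55, MUC4 from -0.15 to 0.50 and TFF2 from -0.15 to 0.0015. Between control vectors MUC4 ran from -0.88 to 0.41. Between sublines TFF1 was -0.061 and TFF2 -0.071 with normexp, and MUC4 was 0.26 with the mean of probes, 1.03 at A_24_P208825, 0.16 at A_33_P3417281 and -0.16 to 0.037 without an array. The cause was not tested. TFF1 and TFF2 are dim, at intensities from 45.4 to 162.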
